A study of Mus musculus with 9 samples.

Results

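The ATP-binding cassette (ABC) transporter genes of crypt intestinal epithelial cells (IECs) were followed after αGalCer, a glycolipid antigen by which CD1d activates natural killer T (NKT) cells. Members were the protein-coding genes whose symbol is Abc, a letter from a to g and a digit, with at least 10 raw counts in 3 or more of the 9 libraries. This rule found 35 genes among 29288 in the count table, and all 35 entered the tests. Tap1 and Tap2, which belong to the same superfamily under other symbols, were not members. Of 50 such Abc genes in the mouse annotation, 45 were in the table, 10 of these stayed below the rule, and Abca16, Abca6, Abca8a, Abcb5 and Abcd2 were not analysed here. The 10 genes below the rule were Abca4, Abca9, Abca12, Abca13, Abca15, Abca17, Abcb1b, Abcb11, Abcc9 and Abcg3.

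Each library came from 1 wild-type (WT) female C57BL/6J mouse, and there were 3 mice per group. The control mice received PBS and were sampled after 18 h, the 18h-αGal mice received 2 µg αGalCer and were sampled after 18 h, and the 72h-αGal mice received the same dose and were sampled after 72 h. IECs were sorted from crypts of the proximal small intestine as live EpCAM+ cells that were negative for Ter119, CD31 and CD45, the markers of erythroid cells, endothelium and leukocytes. No control was sampled at 72 h, so the effect of αGalCer at 72 h and that of the time of sampling cannot be told apart.

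ABC proteins carry a nucleotide-binding domain that binds and hydrolyses ATP. Most are membrane pumps that move a substrate out of the cytosol, and in the intestine those of the plasma membrane return drugs, toxins, conjugated metabolites and plant sterols to the lumen or pass them to the blood. Other members load lipid into lysosomes or lipoproteins, or work in mitochondria and peroxisomes. Subfamilies E and F lack membrane-spanning segments and serve the ribosome instead of transport.

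At 18h-αGal the clearest changes were a fall of 2 exporters and a rise of 1 ribosome recycling factor. Abcb1a, the drug efflux pump P-glycoprotein, and Abcc6, an exporter needed to prevent ectopic calcification, were lower in all 3 mice than in any control mouse, and Abce1, which splits ribosomes after termination, was higher in all 3. At 72h-αGal no member passed the test against control. Promoters of the called members are shown because their mRNA levels moved in opposite directions. RefSeq windows on GRCm38.p6 were found for 25 of the 35 members and for 2 of the 5 members that were called in any comparison. The window of Abcb1a, on chromosome 5, plus strand, was chr5:8566841-8567090 and that of Abce1, on chromosome 8, minus strand, was chr8:79711741-79711990. Each is the 250 bases before the annotated start, 5′ to 3′ on the strand of the gene, with matches to the searched motifs in capitals.
Abcb1a: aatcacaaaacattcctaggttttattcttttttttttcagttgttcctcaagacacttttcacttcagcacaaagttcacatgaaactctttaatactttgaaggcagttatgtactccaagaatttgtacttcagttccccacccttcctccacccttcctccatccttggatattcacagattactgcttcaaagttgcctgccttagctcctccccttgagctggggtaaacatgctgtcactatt
Abce1: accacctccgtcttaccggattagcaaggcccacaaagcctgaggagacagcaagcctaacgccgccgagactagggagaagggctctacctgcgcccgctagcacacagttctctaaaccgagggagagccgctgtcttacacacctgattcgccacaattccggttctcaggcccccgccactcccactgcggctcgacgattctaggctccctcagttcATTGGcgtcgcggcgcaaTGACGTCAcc
The base composition of these windows differed, with 40.4% G and C for Abcb1a and 60.4% for Abce1, where the median of all windows was 52.4% and the 10th to 90th percentiles ran from 38.8% to 69.2%. Both strands were searched for the GC box (GGGCGG), the CCAAT box (CCAAT), the GAS element (TTCNNNGAA), the E-box (CACGTG), a nuclear receptor half-site (AGGTCA), the cAMP response element (TGACGTCA) and the TATA box (TATAAA). The Abcb1a window held none of the 7. The 25 members had 32 windows, so a gene can have more than 1 annotated start, and which start these cells used was not tested. The Abce1 window held a CCAAT box, read on the opposite strand, 28 to 24 bases before the start and a cAMP response element 10 to 3 bases before it. Of 32851 windows of this length, 33.8% held a CCAAT box and 1.55% a cAMP response element. Among the 32 windows of the members, the shares were 28.1% and 6.25%, and 53.1% held a GC box against 32.7% of all windows. These matches are letters in a sequence and were not tested for binding.

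Total counts per library ranged from 8887861 to 32722293, and the members took 2030 to 2830 CPM (counts scaled to the library total). Control replicate 3 was the shallowest library and stood apart in several members, so the values that moved most without it are given both ways. Epcam was at 18710 ± 2187 normalised counts (SD, n = 3) in control, 21810 ± 1286 at 18h-αGal and 17750 ± 1488 at 72h-αGal. Of 7 epithelial markers, Epcam among them, 4 had estimates above 0 and 3 below at 18h-αGal against control. None of the 7 was called against control at 18h-αGal or 72h-αGal. Between 72h-αGal and 18h-αGal 1 was called, Krt18, with a log2 fold change of 0.54, where Epcam had -0.29. None of 10 enterocyte markers was called in any comparison. Leukocyte markers summed to 380 to 586 normalised counts in control, 436 to 729 at 18h-αGal and 701 to 848 at 72h-αGal. Most of this was 1 gene, Cd68, with means of 365, 436 and 612 where the mean sums were 500, 576 and 760. None of the 7 tested leukocyte markers was called in any comparison. Cd3e and Adgre1, which define T cells and macrophages, were at 0 in every control library, while Cd3e had 2 to 21 raw counts at 72h-αGal. Endothelial markers summed to 51.1 to 64.5 in control, 14.4 to 25.2 at 18h-αGal and 30.1 to 36.3 at 72h-αGal. The normalised count is the raw count divided by 1 size factor per library. In sorted bulk cells, fewer cells of a type and less RNA per cell cannot be told apart.

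Levels between genes were compared as normalised counts per kb of exon. In control, Abcg5 had the highest level, 1207 per kb, followed by Abcc2 at 822.5, Abcg8 at 810.8, Abcc3 at 797.9 and Abcd3 at 581.6. The ranges of neighbours in this order overlapped over those 5 genes, so their order is not set beyond the spread between mice. Abcg5 and Abcg8 together form the sterol pump of the brush border, Abcc2 and Abcc3 export glucuronide and glutathione conjugates, and Abcd3 brings fatty acids into peroxisomes. Abce1 came sixth with 477.9 per kb and its range lay below that of Abcd3. Abcb1a was at 282.4 per kb and Abcc6 at 90.18. At the lower end stood Abca8b with 0.8955 per kb, and Abca5, Abcg4, Abca14, Abcb4 and Abcc12 were also under 3 per kb. A library at 0 occurred in Abca8b, Abca14 and Abcc12. The 5 highest members of each library made up 45.9% to 57.7% of the summed level per kb. At 18h-αGal the order changed at its top and middle: Abce1 rose to second place with 754.8 per kb, while Abcb1a moved from rank 10 to rank 19 with 68.51 per kb and Abcc6 from rank 20 to rank 24 with 27.28 per kb. At 72h-αGal they stood at ranks 6, 11 and 19.

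**Figure D1:**
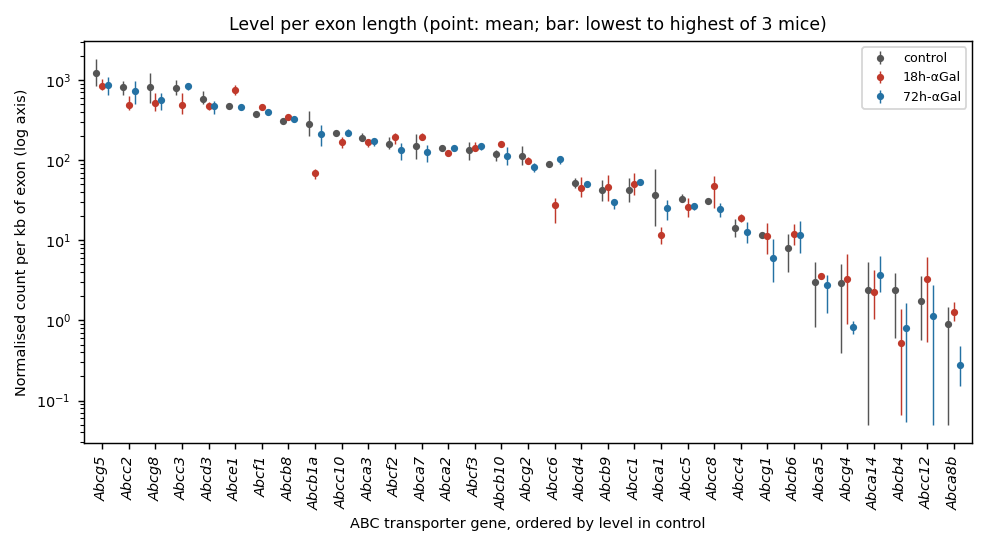
Level of 33 ABC transporter genes in crypt IECs as normalised count per kb of exon (vertical log axis), ordered by the control mean. Points are means and bars run from the lowest to the highest of 3 mice per group, and the bars of Abca14 and Abca8b in control and of Abcc12 in 72h-αGal end at the plot's floor of 0.05 because a mouse was at 0. Abcb1a and Abcc6 dip at 18h-αGal and Abce1 peaks.

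The first comparison asked which members differed between 18h-αGal and control IECs. The quasi-likelihood test of edgeR was used, with p-values adjusted by the Benjamini-Hochberg method over the 18933 genes tested, and a gene was called at an adjusted p under 0.05. It called 3 of 35 members, 1 higher and 2 lower, which is 8.57% where 5.96% of all genes were called (3.27% higher and 2.69% lower). The share of members called was thus near that of all genes. In 9 members, 25.7%, the groups did not overlap, against 23.8% of all genes. At an unadjusted p under 0.05 there were 10 members, and 20.8% of all genes. The median log2 fold change of the members was 0.10 and that of all genes -0.03. The 35 estimates were spread from -2.07 for Abcb4 to 1.01 for Abcc12, both at low counts, and 18 were above 0. Their spread without control replicate 3 was from -1.71 for Abcc6 to 1.98 for Abcc12.

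**Figure D2:**
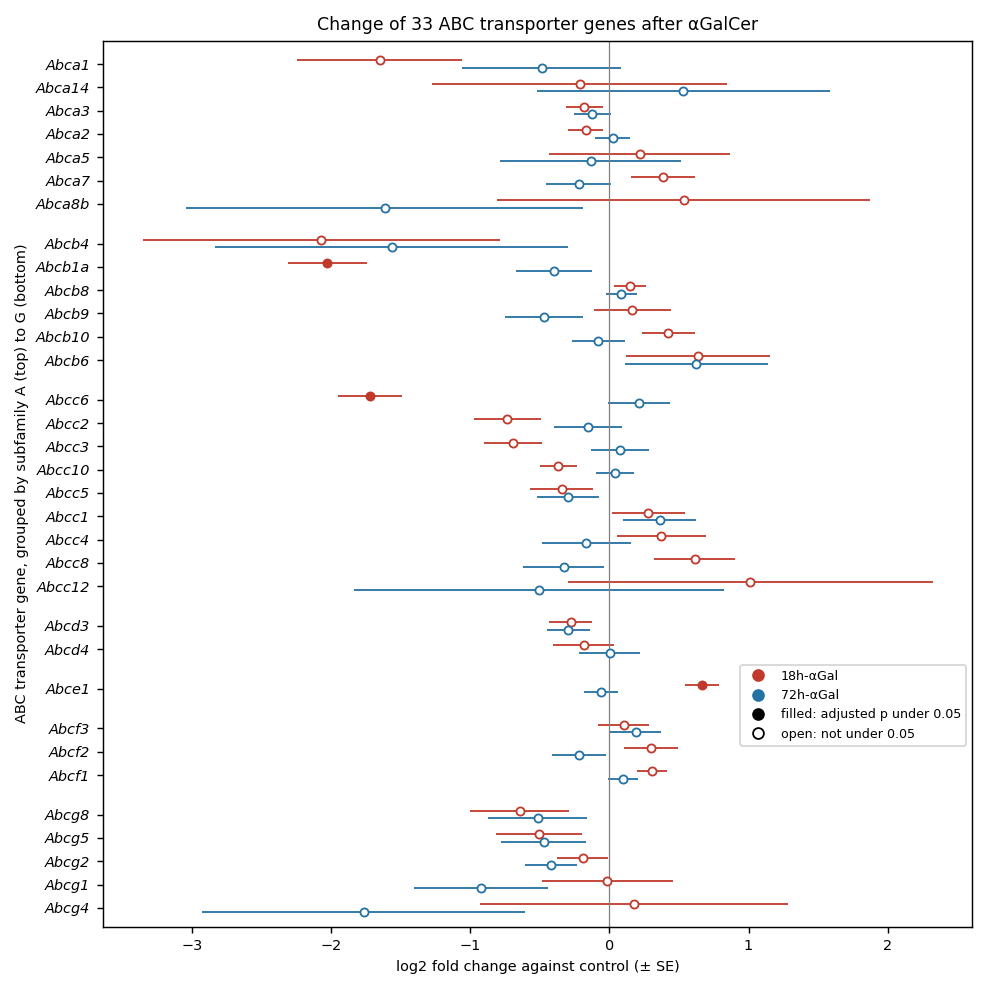
Log2 fold change against control (horizontal axis, ± SE) of 33 ABC transporter genes, by subfamily from A at the top to G at the bottom, for 18h-αGal (red) and 72h-αGal (blue). Filled points had an edgeR adjusted p under 0.05: Abcb1a, Abcc6 and Abce1 at 18h-αGal and no gene at 72h-αGal.

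Among the 9 plasma membrane exporters of drugs, conjugates and bile salts, 2 fell and none rose. This was 22.2% called, against 5.96% of all genes (2.69% lower), and the roles were assigned after the values had been seen. Of the 9 estimates, 7 were below 0, with a median log2 fold change of -0.37. Abcb1a (ENSMUSG00000040584, chromosome 5), which pumps lipophilic drugs back into the lumen, was at 1444, 1231 and 2534 normalised counts in the control mice. It was at 425, 360 and 479 at 18h-αGal, a level below every control mouse. The mean went from 1737 ± 699 to 421 ± 59.4 (SD, n = 3), a log2 fold change of -2.03 (SE 0.29) or 4.08-fold lower, with an adjusted p of 0.00268 from edgeR's quasi-likelihood test. Without control replicate 3, the highest control, the log2 fold change was -1.67. Of the 50-base words of Abcb1a exons, 20.3% also occur in other genes, most of them in Abcb1b. The raw count of Abcb1b was 0 to 10 in the 9 libraries, so in these cells nearly all counts of the pair were given to Abcb1a.

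Abcc6 (ENSMUSG00000030834, chromosome 7) had 815, 718 and 792 normalised counts in control and 276, 139 and 288 at 18h-αGal. The control mice lay close together and every 18h-αGal mouse was below them. The mean fell from 775 ± 51.0 to 234 ± 82.7, a log2 fold change of -1.72 (SE 0.23) or 3.29-fold lower, with an adjusted p of 0.000719 from edgeR's quasi-likelihood test, the lowest among the members. The product of this gene promotes ATP release from cells, and its loss in humans causes pseudoxanthoma elasticum. Exons of Abcb1a, Abcc6, Abcc3 and Abce1 share 553, 274, 622 and 31 bases with Gm42686, Gm73919, Gm51871 and Anapc10 on the opposite strand. Other members have such overlaps too, among them Abcb10, with 783 bases shared with Gm45890. The strand setting of the counting is not given in the sources used here.

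The conjugate exporters Abcc2 and Abcc3 showed lower levels at 18h-αGal that did not pass the adjusted threshold. Abcc2, which secretes conjugates across the apical membrane, was at 7495, 5583 and 8402 normalised counts in control and at 3755, 3692 and 5418 at 18h-αGal. Its groups did not overlap, the log2 fold change was -0.73 (SE 0.24) and the adjusted p from edgeR was 0.116. Abcc3, which passes conjugates and bile salts through the basolateral membrane, was at 4451, 3870 and 5972 in control and at 2275, 2486 and 4047 at 18h-αGal. Replicate 3 at 18h-αGal overlapped the control mice, and the log2 fold change was -0.69 (SE 0.21) with an edgeR adjusted p of 0.0781. DESeq2 called both, with adjusted p of 0.0185 for Abcc2 and 0.0198 for Abcc3, and limma-voom did so too (0.0458 and 0.0293), so their calls depended on the test. In edgeR, Abcc3 was called without 18h-αGal replicate 3 (adjusted p 0.0028), and Abcc2 without 72h-αGal replicate 2 (0.0422) or 72h-αGal replicate 3 (0.0440).

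The remaining exporters did not pass the test. Abcg2, the apical pump known as breast cancer resistance protein, was at 990, 818 and 1415 normalised counts in control and 849, 910 and 1032 at 18h-αGal. Its groups overlapped, the log2 fold change was -0.19 (SE 0.18), and without control replicate 3 it was 0.04. Abcc1, a basolateral exporter of glutathione conjugates such as leukotriene C4, was at 547, 936 and 464 in control and 734, 1062 and 566 at 18h-αGal. The mice of each group were spread as widely as the groups, and the log2 fold change was 0.28 (SE 0.26). Abcc4, which exports cyclic nucleotides and prostaglandins, was at 159, 119 and 95.1 in control and 182, 157 and 145 at 18h-αGal, again with overlap, and its log2 fold change was 0.37 (SE 0.32). Without control replicate 3 the estimates of Abcc1 and Abcc4 were 0.09 and 0.22. Abcc10, an exporter of glucuronides and taxanes, had 1464 to 1555 in control and 984 to 1348 at 18h-αGal without overlap, a log2 fold change of -0.37 (SE 0.14, edgeR adjusted p 0.132). Abcc5, an exporter of cyclic nucleotides and folates, had overlapping groups and a log2 fold change of -0.34 (SE 0.23).

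**Figure D3:**
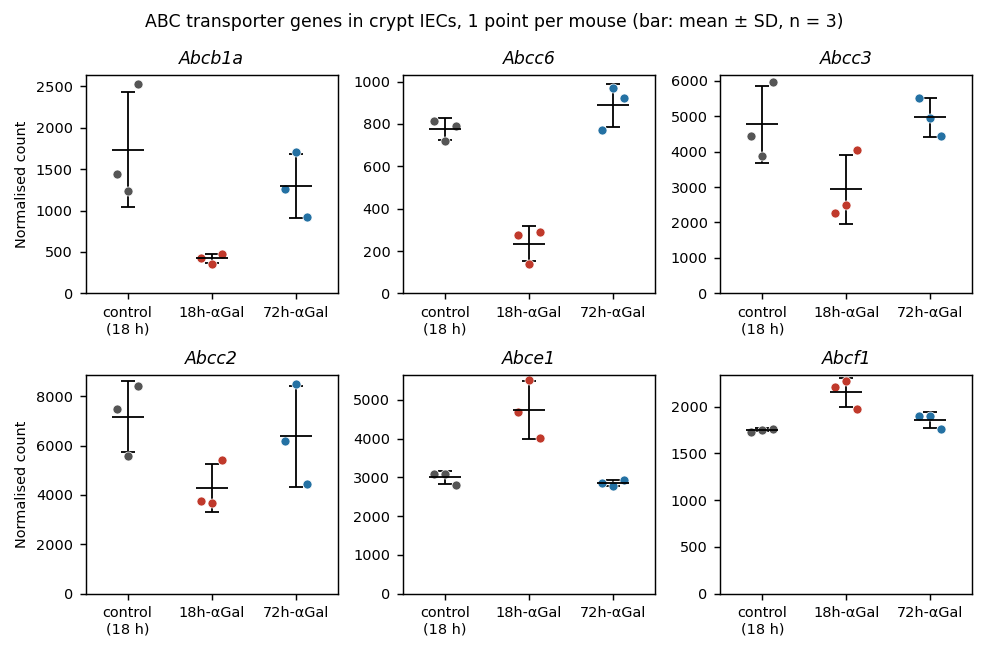
Normalised counts (vertical axes from 0) of Abcb1a, Abcc6, Abcc3, Abcc2, Abce1 and Abcf1, with 1 point per mouse and the mean ± SD of 3 mice, in control (18 h), 18h-αGal and 72h-αGal. Abcb1a and Abcc6 sit below every control mouse at 18h-αGal and Abce1 and Abcf1 above, and at 72h-αGal all 6 genes overlap the control mice.

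The 7 transporters of cellular lipids and sterols had no call at 18h-αGal. Their median log2 fold change was -0.50 and 5 of 7 estimates were below 0. The median rested on control replicate 3: without it the median was -0.09, 4 of 7 estimates were below 0 and 1 gene, Abca7, was called. Abca1, which loads cholesterol onto apolipoprotein A-I, was at 183, 235 and 944 normalised counts in control and 111, 130 and 182 at 18h-αGal. The groups did not overlap, but the third control mouse was far above the others. The log2 fold change was -1.65 (SE 0.59, edgeR adjusted p 0.151), and without that library it was -0.57 (edgeR adjusted p 0.284). Abcg5 was at 3369, 3005 and 6478 in control and 2641, 2680 and 3661 at 18h-αGal, and Abcg8, its obligate partner, at 2590, 2008 and 4767 and at 1593, 1671 and 2681. The third control mouse was again the highest for both partners. Their log2 fold changes of -0.50 (SE 0.31) and -0.64 (SE 0.36) became -0.09 and -0.22 without it. Abcg5 and Abcg8 are neighbours read in opposite directions, their exons share 108 bases and their promoter windows share 209 bases. Abcg1, which exports cholesterol to high-density lipoprotein, was at 90.5, 84.5 and 92.7 in control and 87.0, 52.1 and 126 at 18h-αGal, with overlap and a log2 fold change of -0.02 (SE 0.47). Abcb4, which flips phosphatidylcholine in hepatocytes, was at 8.22, 37.0 and 52.3 in control and 18.9, 0.898 and 1.38 at 18h-αGal. The counts of 2 of the 18h-αGal mice lay under the floor of 3 raw counts per library, and the log2 fold change of -2.07 (SE 1.28) did not pass the test. For Abca7, a lipid transporter with a part in phagocytosis, and Abcg4, a sterol exporter of the brain, the log2 fold changes were 0.39 (SE 0.23) and 0.18 (SE 1.11). Abca7 had 0.71 without control replicate 3, with an edgeR adjusted p of 0.0292.

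The 4 soluble members that act on the ribosome had estimates above 0, and 1 of them rose. This was 25% called, where 3.27% of all genes were called higher, and this role too was assigned after the values had been seen. Abce1 (ENSMUSG00000058355, chromosome 8) was at 3098, 3093 and 2817 normalised counts in control and at 4690, 5510 and 4028 at 18h-αGal. All 18h-αGal mice lay above the control mice, which spread little. The mean went from 3003 ± 161 to 4743 ± 743, a log2 fold change of 0.67 (SE 0.12) or 1.59-fold higher, with an edgeR adjusted p of 0.00546. Abcf1, which takes part in translation initiation, was at 1733, 1754 and 1766 in control and 2206, 2277 and 1973 at 18h-αGal. Its groups did not overlap, and the log2 fold change was 0.31 (SE 0.11) with an edgeR adjusted p of 0.115. Abcf2 and Abcf3, related ATPases, had log2 fold changes of 0.30 (SE 0.19) and 0.10 (SE 0.18) with overlapping groups, that of Abcf3 being 0.28 without control replicate 3.

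Of the mitochondrial members, Abcb10, Abcb8 and Abcb6 had estimates above 0 and were not called. Abcb10, which supports haem synthesis, had 500 to 683 in control and 748 to 872 at 18h-αGal, a log2 fold change of 0.42 (SE 0.19, edgeR adjusted p 0.218). Abcb8 had a log2 fold change of 0.15 (SE 0.11), and Abcb6 one of 0.64 (SE 0.51), or 0.99 without control replicate 3, though 54.1% of the 50-base words of Abcb6 occur in other genes, so its counts are uncertain.

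In the remaining roles no member was called at 18h-αGal against control. The 5 lysosomal or lamellar body members, Abca2, Abca3, Abca5, Abcb9 and Abcd4, had log2 fold changes from -0.18 to 0.22 and overlapping groups. Without control replicate 3, Abca5 turned from 0.22 to -0.18 and Abcb9 went from 0.17 to 0.41, neither called. In peroxisomes, Abcd3 was at 3678, 3479 and 5002 in control and 3267, 2959 and 3734 at 18h-αGal, a log2 fold change of -0.28 (SE 0.15) that was -0.11 without control replicate 3. Abcc8, the sulfonylurea receptor of potassium channels in endocrine cells, was at 250, 272 and 273 in control and 217, 461 and 540 at 18h-αGal, a log2 fold change of 0.61 (SE 0.29, edgeR adjusted p 0.245). Summed enteroendocrine markers were at 5820 to 6480 normalised counts in control, 7920 to 11000 at 18h-αGal and 2450 to 2850 at 72h-αGal. Abcc8 was at 169, 206 and 250 at 72h-αGal. In 18h-αGal replicate 1, Abcc8 at 217 lay below every control mouse, while the marker sum of 7920 lay above every control mouse. Of the 5 markers, 3 rose at 18h-αGal and 5 fell at 72h-αGal against control. These 5 were the only genes called at 72h-αGal against control among the 18933 tested. The marker list was set with earlier results of these data known, so its count is not independent support. The part of these cells in the Abcc8 levels was not tested. Abca8b, Abca14 and Abcc12, for which no role was assigned, were at 0 to 41.4 normalised counts in every library.

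Markers of crypt cell types were read in the same libraries, and some of their sums differed between groups while others overlapped. The 6 crypt stem cell markers summed to 42500 to 82400 normalised counts in control, 11700 to 39700 at 18h-αGal and 54700 to 86200 at 72h-αGal, and all 6 had estimates below 0 at 18h-αGal, though none was called. The 10 enterocyte markers summed to 132000 to 352000, 178000 to 289000 and 84100 to 171000. Against control, 7 of the 10 had estimates below 0 at 18h-αGal and all 10 at 72h-αGal, with median log2 fold changes of -0.21 and -0.77. Between 72h-αGal and 18h-αGal 9 of the 10 were below 0, with a median of -0.59, and none was called. Control replicate 3 held the highest enterocyte sum, and also the highest Abca1, Abcb1a, Abcg5, Abcg8, Abcc2 and Abcc3 of the control mice. The same library held the lowest control sums of crypt stem (42500), Paneth (17700) and tuft cell (2300) markers. Its goblet cell sum of 255000 was the highest of the control mice. Tuft cell markers summed to 2300 to 4180 normalised counts in control, 4080 to 7650 at 18h-αGal and 2350 to 3930 at 72h-αGal, and 1 of 4 was called at 18h-αGal. The sums of goblet and Paneth cell markers overlapped between all 3 groups, at 117000 to 362000 and 17700 to 76300 over the 9 libraries. Stromal markers summed to 25.8 to 35.7 in control, 1.80 to 13.8 at 18h-αGal and 2.02 to 11.6 at 72h-αGal, so both αGalCer groups lay below the control mice, and 1 of the 4 markers had enough counts to be tested and was not called. The part of cell composition in these levels was not tested.

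The second comparison asked which members still differed from control at 72h-αGal. No member was called by edgeR's quasi-likelihood test, DESeq2 or limma-voom, and over all genes edgeR called 0.0264%. Abcg2 was the only member with an unadjusted p under 0.05, where 5.94% of all genes had one: it was at 840, 863 and 669 normalised counts at 72h-αGal, with a log2 fold change of -0.42 (SE 0.18, edgeR adjusted p 0.826). Its range overlapped the control range, and without control replicate 3 the log2 fold change was -0.18. In 3 members, Abcc5, Abcc8 and Abcg1, the groups did not overlap, all 3 lower, which is 8.57% against 12.7% of all genes (6.36% higher and 6.3% lower). The gaps were narrow. The lowest control and the highest 72h-αGal mouse were at 347 and 345 for Abcc5, 84.5 and 80.7 for Abcg1, and both at 250 for Abcc8. The median log2 fold change was -0.16 for the members and 0.002 for all genes, and 24 of 35 estimates were below 0. Without control replicate 3 the median of the members was -0.03, with 20 of 35 estimates below 0.

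By role, all 7 lipid and sterol transporters had estimates below 0 at 72h-αGal, none called, with a median log2 fold change of -0.52. Both values rested on control replicate 3: without it 5 of 7 estimates were below 0 and the median was -0.09. Abcg5 was at 3028, 3816 and 2285 normalised counts and Abcg8 at 2157, 2678 and 1615, log2 fold changes of -0.47 (SE 0.31) and -0.52 (SE 0.35) that were -0.06 and -0.09 without that library. Abcg1 was at 35.9, 80.7 and 23.6, a log2 fold change of -0.92 (SE 0.48). Abca1 was at 327, 389 and 222, within the control range, and its log2 fold change of -0.49 (SE 0.57) became 0.59 without control replicate 3. Of the exporters, Abcc1 was at 840, 797 and 854, where the log2 fold change was 0.36 (SE 0.26), or 0.18 without control replicate 3. Abcc4 was at 105, 80.7 and 145, where it was -0.16 (SE 0.32), or -0.31 without it. Abcb4 was at 9.27, 22.2 and 0.736.

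For the members that had moved at 18h-αGal, the 72h-αGal mice overlapped the control mice again. Abcb1a was at 1260, 1705 and 924 normalised counts, 74.7% of the control mean where it had been 24.3%, and the 95% interval of its log2 fold change at 72h-αGal ran from -1.0 to 0.20. Without control replicate 3 it was at 96.9% of the mean of the other 2 control mice, after 31.5%, and the log2 fold change at 72h-αGal went from -0.40 to -0.04. Abcc6 was at 773, 970 and 921, or 115% of control after 30.3%, with an interval from -0.26 to 0.68. Abce1 was at 2853, 2779 and 2939, or 95.1% after 158%, with an interval from -0.32 to 0.20. All 3 intervals included 0, and that of Abcb1a was the widest.

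The third comparison set the αGalCer mice of 72 h against those of 18 h. It called 5 of 35 members, 3 higher and 2 lower at 72h-αGal, which is 14.3% where 10.2% of all genes were called (4.18% higher and 6.04% lower). In 12 members, 34.3%, the groups did not overlap, against 32.8% of all genes, and 12 members had an unadjusted p under 0.05, where 24.3% of all genes did. The median log2 fold change was -0.02 for the members and 0.05 for all genes. It shares the 18h-αGal mice with the first comparison, so the values of both are given side by side and not correlated. Abcc6 rose by 1.93 (SE 0.23) on the log2 scale with an edgeR adjusted p of 0.000198, and Abcb1a by 1.63 (SE 0.28) with an edgeR adjusted p of 0.00539. In both genes every 72h-αGal mouse was above every 18h-αGal mouse. Abce1 fell, with a log2 fold change of -0.72 (SE 0.12, edgeR adjusted p 0.00222), and again without overlap.

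Abcc3 passed the threshold in this contrast and not at 18h-αGal against control, where its estimate had the opposite sign. Abcc3 (ENSMUSG00000020865, chromosome 11) was at 5506, 4952 and 4425 normalised counts at 72h-αGal, each above the 18h-αGal mice, and its log2 fold change was 0.77 (SE 0.21, edgeR adjusted p 0.0397). This call was lost in 8 of 17 alternative analyses: with DESeq2 size factors, with no filter on low counts, and without control replicate 1, 18h-αGal replicate 1 or 2, or any 1 of the 72h-αGal mice, with adjusted p up to 0.141. Abcc2 was at 6168, 8510 and 4426 at 72h-αGal, overlapping both other groups, with a log2 fold change of 0.58 (SE 0.24, edgeR adjusted p 0.177).

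By role, of the 9 exporters, 3 rose and none fell, with a median of 0.41, and of the 4 ribosomal members 1 fell, with a median of -0.36. These were 33.3% and 25% called, where 4.18% of all genes were called higher and 6.04% lower. The roles were assigned after the values had been seen. None of the 7 lipid and sterol transporters was called. Abca1 had a log2 fold change of 1.16 (SE 0.58, edgeR adjusted p 0.268) that was called without control replicate 3 (1.17, edgeR adjusted p 0.0103), as was Abca7 (-0.60, 0.0236). Abcc8 had -0.94 (SE 0.29, edgeR adjusted p 0.0537), also called without that library (0.0435). Among the rest, Abca8b had the estimate farthest below 0, -2.15, from 9.46 to 16.6 normalised counts at 18h-αGal and 1.47 to 4.63 at 72h-αGal.

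Genes that work beside the transporters were read from 5 lists set by function, with earlier results of these data known. Over all genes, 5.96% were called at 18h-αGal against control. In the superfamily under other symbols, all 3 genes were called at 18h-αGal. Tap1 and Tap2, the peptide pump that feeds MHC class I molecules, rose with log2 fold changes of 2.25 (SE 0.38) and 1.41 (SE 0.28) and edgeR adjusted p of 0.0166 and 0.0138. Cftr, the chloride channel of the crypt, fell from 5795 ± 274 normalised counts to 3021 ± 222 (log2 fold change -0.93, SE 0.11, edgeR adjusted p 0.000214). All 3 were also called between 72h-αGal and 18h-αGal, with log2 fold changes of -2.28, -1.44 and 1.04, and none at 72h-αGal against control. At 18h-αGal, Tap1 lost its call without control replicate 1 (edgeR adjusted p 0.0612), 18h-αGal replicate 2 (0.0678) or 18h-αGal replicate 3 (0.0547), and Tap2 without control replicate 1 (0.0779) or 18h-αGal replicate 2 (0.0574).

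Of 14 phase I and II enzymes, which oxidise and conjugate the compounds that the exporters remove, 7 fell at 18h-αGal and none rose. Over all genes, 2.69% were called lower. All 14 estimates were below 0, with a median log2 fold change of -1.26. Cyp2c55 and Cyp2b10, cytochromes P450, had -3.83 (SE 0.73) and -3.61 (SE 0.73), and Gsta4 and Gstm1, glutathione transferases, had -1.44 (SE 0.26) and -1.36 (SE 0.26). The edgeR adjusted p of these 4 were 0.0228, 0.0367, 0.00546 and 0.0131. Cyp2c65, Ugt1a1 and Ugt2b34 were also called, with log2 fold changes of -1.10, -0.88 and -0.71. Under the other analyses 6 of the 7 lost their call at least once, Gsta4 being the exception.

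Among 16 transcription factors and receptors that regulate ABC genes, 2 fell at 18h-αGal. Nr1h4, the bile acid receptor FXR, had a log2 fold change of -0.98 (SE 0.26, edgeR adjusted p 0.0400) and Ppard, a fatty acid receptor, one of -0.43 (SE 0.12, edgeR adjusted p 0.0497). Both lost the call in several alternatives, Ppard in 11 of 17. Nr1i2, the xenobiotic receptor PXR that regulates Abcb1a, had -0.17 (SE 0.15) and was not called. None of 9 tested sterol handling genes was called at 18h-αGal, and of 12 tested solute carriers of drugs and bile acids 1 was, the nucleoside importer Slc28a2 with -1.55 (SE 0.29, edgeR adjusted p 0.00661). At 72h-αGal against control no gene of these 5 lists was called.

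**Figure D4:**
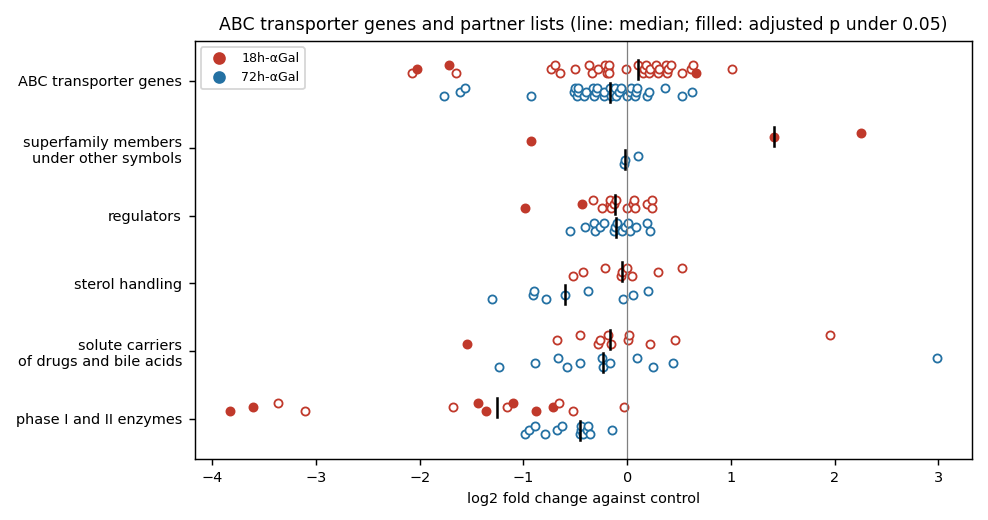
Log2 fold change against control (horizontal axis) of the ABC transporter genes and of 5 partner lists at 18h-αGal (red) and 72h-αGal (blue), with 1 point per tested gene, a line at the median and filled points at an edgeR adjusted p under 0.05. The phase I and II enzymes lie below 0 with a median of -1.26 at 18h-αGal, while the ABC transporter genes lie on both sides of 0 with a median of 0.10.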

How the data were processed

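RNA sequencing of sorted crypt IECs gave 9 libraries, 1 per mouse. Per the labels, libraries were strand-directional, depleted of ribosomal RNA and read at 100 bp. Per the study's methods, the authors sequenced them on a NovaSeq instrument and mapped the reads with HISAT2. The methods name GRCm39, while the submitters' processing notes name GRCm38 (mm10), Subread, featureCounts and DESeq2 1.42.0, with no role given. The annotation release and the strand setting of the counting are not given in the sources used here. The authors deposited a raw count per gene and library, and a normalised signal equal to the raw count divided by 1 size factor per library (largest relative difference 5.1e-15), here called the normalised count. The smallest row total was 6 counts, and total counts per library were 8887861 to 32722293. A floor of 3 counts per library, 1.76 to 7.13 normalised counts, covers counting error only.

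Symbols and exon lengths came from GENCODE vM39, which matched 28480 of 29288 identifiers (98.4% of counts). Promoter windows came from RefSeq (GRCm38.p6), and gene coordinates are not printed because the build of the counts is uncertain. Raw counts were tested in edgeR 4.0.16 (R 4.3.3): filterByExpr kept 18933 genes, libraries were scaled by TMM, and 1 robust quasi-likelihood fit of all 9 libraries gave 3 contrasts, with Benjamini-Hochberg adjustment over all genes tested. The SE was the size of the log2 fold change divided by the square root of F, and 95% intervals used the t quantile of the fit. Alternatives were DESeq2 1.42.0, limma-voom (limma 3.58.1), other size factors, filters and sample sets, a replicate block and leaving out each library. On simulated counts with 200 genes changed 4-fold between control and 18h-αGal, edgeR recovered 173 with 4 false calls among 18440 genes. The simulation gave every gene the same dispersion and changed only genes above a minimum mean count. It therefore does not show how many changes smaller than 4-fold would be called.

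Members and lists were chosen with earlier results of these data known, so no list gets a test of its own. Values in each library are given for members called in any comparison and for members with a known intestinal role, and the member with the largest absolute log2 fold change at 18h-αGal is named in each subfamily. Results of 2 members are not reported here, and counts over the members include them. Roles were assigned from general knowledge after the values had been seen. An exact permutation test of 3 against 3 mice cannot go below p = 0.1, so none was used. Markers of 11 cell types and 5 partner lists were read from the same fit. Only 1 of 4 erythroid markers was in the table.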

Additional observations from a re-analysis of the deposited data

Results flagged for a closer look

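Genes that differed between the 72h-αGal and the 18h-αGal mice were singled out, by the direct contrast of the 2 groups in edgeR's quasi-likelihood test at an adjusted p under 0.05. With no control at 72 h, this contrast holds the time of sampling too. Among the ABC transporter genes, the log2 fold change of 72h-αGal against 18h-αGal was 1.93 for Abcc6, 1.63 for Abcb1a, 0.77 for Abcc3 and -0.72 for Abce1. Among the partner genes it was -2.28 for Tap1, -1.44 for Tap2 and 1.04 for Cftr. The enzymes Cyp2c55, Gsta4 and Gstm1 had 2.94, 1.02 and 1.21. The nucleoside importer Slc28a2 had 1.38, and Slc51b, a subunit of the basolateral bile acid exporter, had -1.46. Scarb1, a receptor for high-density lipoprotein, had -0.89, and Vdr, the vitamin D receptor, had 0.42. Of 17 alternative analyses, Cyp2c55 lost this call in 9, Abcc3 in 8, Slc51b and Scarb1 in 7 each, Gsta4 in 5, Vdr in 4, Gstm1 in 3 and Tap1 in 1, and the other genes named here kept it in all 17. Leaving out 1 library lost 7 of these 14 calls without 18h-αGal replicate 2, 6 without 72h-αGal replicate 1, 5 each without 18h-αGal replicate 1 or 72h-αGal replicate 3, 4 each without 18h-αGal replicate 3 or 72h-αGal replicate 2, and 3 without control replicate 1. The replicate block lost 4, those of Cyp2c55, Gsta4, Scarb1 and Slc51b. The highest adjusted p of a lost call was 0.174, for Scarb1. With 3 mice per group, no sample was tested for standing apart from its group, and all 9 libraries stayed in the main fit. Control replicate 3 was left out in the values given both ways because it had been seen to stand apart in several members.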

How the results depend on the processing

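Over 17 alternative analyses, Abcb1a, Abcc6 and Abce1 kept their direction and their call at 18h-αGal against control and at 72h-αGal against 18h-αGal, with adjusted p up to 0.0243, 0.00688 and 0.0396 in the first and 0.0347, 0.00116 and 0.0170 in the second, and no member was called at 72h-αGal against control. The count of 3 at 18h-αGal was 5 with DESeq2 (adding Abcc2 and Abcc3), 6 with limma-voom (Abcc2 and Abcc3 among them), and 3 to 5 when 1 library was left out, 5 without control replicate 3. The count of 5 between 72h-αGal and 18h-αGal was 3 to 8 when 1 library was left out: 8 without control replicate 3 and 3 without 72h-αGal replicate 1 or 3. The median of the members at 18h-αGal ranged from -0.17 (without 18h-αGal replicate 3) to 0.16 when 1 library was left out. Of 71 genes and comparisons followed, 37 kept direction and side of the threshold throughout, 19 lost and 4 gained a call at least once, and 11 changed sign, none of them called as reported.

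The sign changes were as follows, as log2 fold changes. At 18h-αGal, Abcg1 was 0.000907 with the replicate block and -0.34 to 0.254 when 1 library was left out, and Abcg2 -0.351 to 0.0395. At 72h-αGal, Abca1 was 0.188 with limma-voom and -0.874 to 0.592 (without control replicate 3) when 1 library was left out, Abcc2 -0.414 to 0.0492, Abcc3 -0.0467 to 0.266 and Abcc4 -0.421 to 0.0631. Between 72h-αGal and 18h-αGal, leaving out 1 library gave -0.61 to 3.14 for Abcb4, -0.104 to 0.358 for Abcc1, -0.138 to 0.109 for Abcd3, -0.16 to 0.199 for Abcg5 and -0.0566 to 0.402 for Abcg8. The cause was not tested.

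The replicate numbers recur in each group but the mice differ, and same-numbered libraries did not deviate together: of 9 pairs, 1 had a correlation over 0.1 (range -0.151 to 0.116), and a library correlated best with its own number in 5 of 18 checks. With the replicate number as a block, 3, 0 and 5 members were called in the 3 comparisons, the same counts as without it. The 6 members with under 3 normalised counts per kb in control had SEs of 0.65 to 1.34 at 18h-αGal against control, against 0.11 to 0.59 for the other members.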
